A study of Solanum lycopersicum with 6 samples.

Results

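The class B and class C heat stress transcription factor (HSF) genes of tomato were followed through heat stress (HS). They were the rows of the deposited gene table whose identifier, without its version suffix, was one of 9 listed for HsfB1, HsfB2a, HsfB2b, HsfB3a, HsfB3b, HsfB4a, HsfB4b, HsfB5 and HsfC1. All 9 were found among the 35603 genes of the table, each in a single row, and 6 of them held enough counts to be tested. RNA came from leaves (the fourth of each plant) of wild-type M82, a cultivar of Solanum lycopersicum, at an age of 4 weeks and after growth at 24 °C with 16 h of light per day. Plants were kept at 45 °C for 0, 1 or 6 h, and each time had 2 biological replicates, which gives 6 libraries. Each replicate was a pool of plants, so p-values measure the spread between pools, not between single plants. The 0 h libraries were the only control and are shared by both comparisons with 0 h. No unheated plants at 1 or 6 h were analysed here, so the length of HS and the time of day cannot be told apart.

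HSFs bind heat shock elements in the promoters of their target genes through a conserved DNA-binding domain, and they assemble through an oligomerization domain whose structure separates classes A, B and C. Class A members carry acidic activator motifs. Class B and C members lack these motifs, and most class B members carry a short repressor motif near the C terminus. In Arabidopsis, HsfB1 and HsfB2b repress heat-inducible HSF genes, and HsfB4 acts in the asymmetric divisions of root cells. In tomato, HsfB1 is also known as a coactivator that works together with HsfA1a.

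Total counts lay between 25147160 and 30738632 per library, a 1.22-fold range. A gene was tested where 2 or more libraries had 50 or more counts, as was the case for 19123 genes. Values are given as counts, or as CPM (counts scaled to a common library size, with the composition correction TMM). Calls were made with edgeR's quasi-likelihood test where the p-value, adjusted by Benjamini-Hochberg over all tested genes, was below 0.05. Of 3 identifiers listed for the small subunit of Rubisco, a defining protein of leaf mesophyll, 2 were in the table and held between 698 and 2007 CPM in every library, with their lowest values at 6 h. Of 4 identifiers listed for fruit ripening and pollen, 3 held at most 6 counts in any library. The fourth, listed as the ripening gene E8, held 2.92 and 3.93 CPM at 0 h and between 8.90 and 17.5 CPM under HS, and its part in the results was not tested. All 3 genes listed as heat response genes were called higher at 1 h, by 7.03 to 9.11 on the log2 scale. Being bulk leaf RNA, the data cannot separate fewer cells of a type from less RNA per cell.

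The family split into early, late and barely detected members. HsfB1, HsfB2a, HsfB2b and HsfB3a rose at 1 h of HS, by 1.67-fold for HsfB2a to 6.58-fold for HsfB2b. HsfC1 and HsfB4a rose at 6 h, by 4.42-fold and 2.38-fold. Of the early members, HsfB3a was still called higher at 6 h than at 0 h, by 1.48-fold, and HsfB2b lower, by 2.20-fold. At 6 h the calls of HsfB4a and HsfB3a each changed in 3 of 14 alternative settings, while those of HsfC1 and HsfB2b did not change. HsfB3b held counts almost only at 1 h, and HsfB4b and HsfB5 held at most 5 counts in any library.

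**Figure D1:**
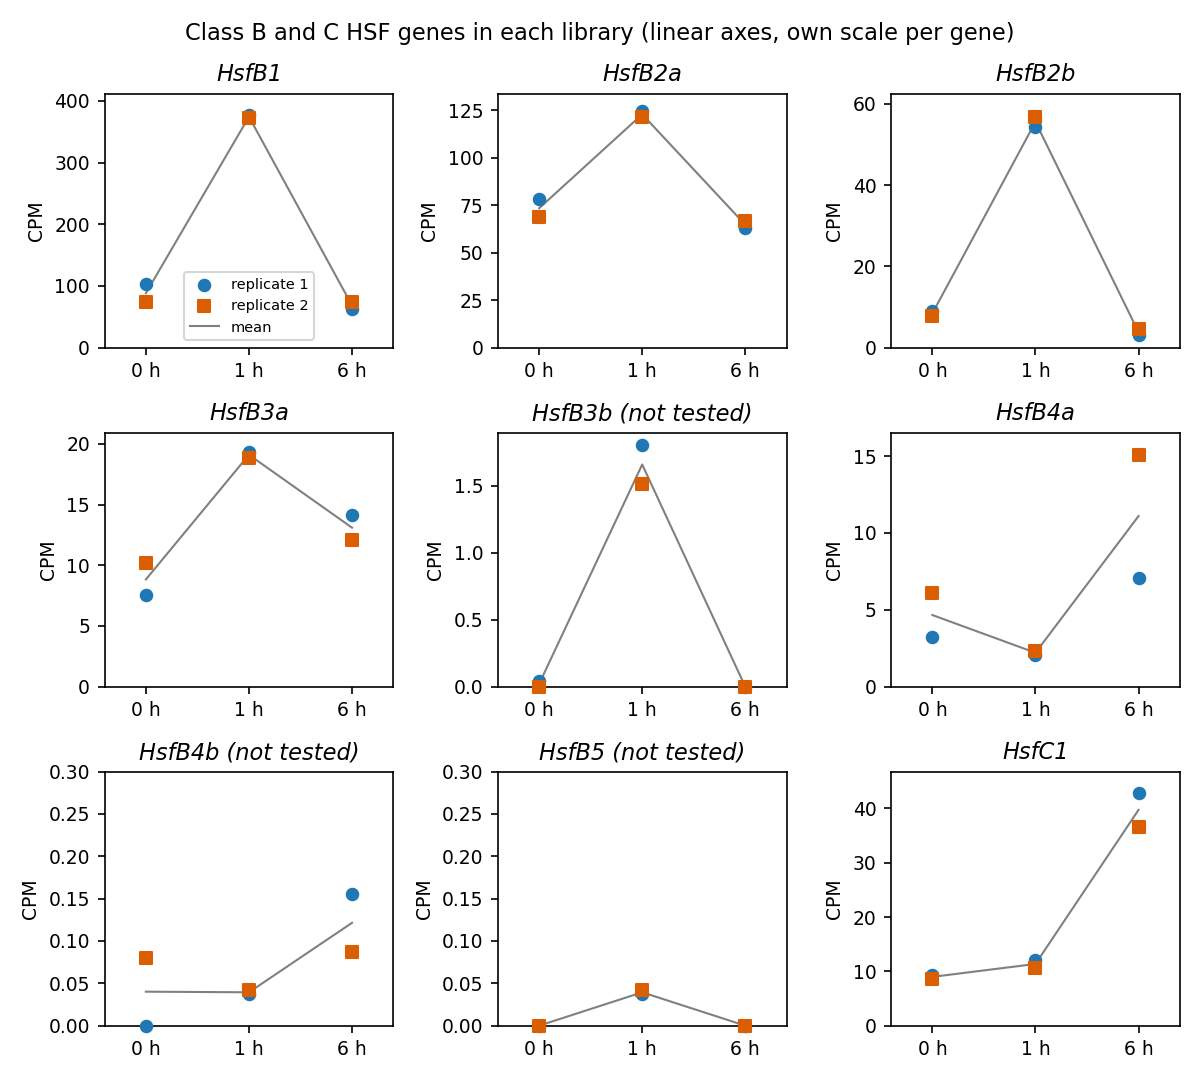
CPM (vertical axes, linear, with an own scale for each gene) of the 9 class B and C HSF genes at 0, 1 and 6 h of HS, with a point for each of the 2 replicates and a line through their means. HsfB1, HsfB2a, HsfB2b, HsfB3a and HsfB3b are highest at 1 h, whereas HsfB4a and HsfC1 are highest at 6 h.

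The first comparison, 1 h of HS against 0 h, addressed the early response. Of the 6 members tested, 4 were called higher, none was called lower and 2 were not called. For comparison, 63.5% of all tested genes were called at 1 h, 32.2% as higher and 31.3% as lower. The median log2 fold change was 0.93 over the 6 tested members and 0.00 over all tested genes. The CPM values of the 2 times did not overlap in any of the 6 members, 5 of which were higher and 1 lower at 1 h. This held for 83.6% of all tested genes, 42.3% with higher and 41.3% with lower values.

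HsfB1 was the most abundant member at 1 h. Its gene, Solyc02g090820.3, occupies 52031596 to 52034946 of chromosome 2, minus strand (3351 bp, with coordinates on the M82 assembly throughout, as in the deposited table). There were 102.5 and 74.1 CPM in the 0 h libraries, 377 and 372 CPM at 1 h, and 63.0 and 73.7 CPM at 6 h. Both 1 h libraries thus stood far above the other 4, and both 6 h libraries lay below the lower 0 h library, 1 of them by less than 1 CPM. The mean went from 88.3 ± 20.1 CPM (SD, n = 2) to 374 ± 3.47 CPM at 1 h, and the fitted change was 2.08 on the log2 scale (SE 0.171, edgeR adjusted p = 1.7e-05). This rise was larger than that of 94.3% of all tested genes.

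HsfB2b had the largest rise among the tested members. In Arabidopsis its namesake is a repressor of HSF genes and of a clock gene. The gene is Solyc08g080540.3, at 64645143 to 64646529 of chromosome 8 (minus strand, 1387 bp). The 0 h libraries held 219 and 193 counts (9.14 and 7.75 CPM), the 1 h libraries 1471 and 1357 counts (54.2 and 56.9 CPM), and the 6 h libraries 101 and 155 counts (3.14 and 4.51 CPM). The 3 times did not overlap, with 1 h highest and 6 h lowest. This was a log2 rise of 2.72 at 1 h (SE 0.170, edgeR adjusted p = 4.3e-06).

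HsfB2a, the second gene of the B2 subclass, was the steadiest of the 4 early members. It is Solyc03g026020.3 on chromosome 3, at 3392765 to 3394494 (plus strand, 1730 bp). The libraries held 78.1 and 68.6 CPM at 0 h, 124 and 121 CPM at 1 h, and 62.7 and 66.6 CPM at 6 h. Only the 1 h libraries stood apart clearly, as the lower 0 h and the higher 6 h library differed by less than the spread between replicates. Its rise at 1 h was 0.74 on the log2 scale (SE 0.110, edgeR adjusted p = 0.000459).

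HsfB3a is Solyc04g016000.3, at 6711879 to 6715425 of chromosome 4 (minus strand, 3547 bp). Its values were 7.51 and 10.2 CPM at 0 h, 19.3 and 18.9 CPM at 1 h, and 14.1 and 12.1 CPM at 6 h. The 6 h libraries stood between the other times. The 1 h change was 1.11 on the log2 scale (SE 0.175, edgeR adjusted p = 0.000653).

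The remaining pair of tested members did not pass the test at 1 h. HsfC1, the sole class C gene, stood at a log2 value of 0.34 (SE 0.144, edgeR adjusted p = 0.0666). HsfB4a had the only negative value, -1.08 (SE 0.428, edgeR adjusted p = 0.0533), with 3.25 and 6.06 CPM at 0 h against 2.06 and 2.35 CPM at 1 h. Its adjusted p-value lay on either side of the threshold over the 14 alternatives, from 0.0124 to 0.323.

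HsfB3b was left untested, since its 2 highest libraries fell short of the required 50 counts. It is Solyc10g079380.2, at 61679572 to 61680883 of chromosome 10 (plus strand, 1312 bp). Its libraries held 1 and 0 counts at 0 h, 49 and 36 counts at 1 h (1.81 and 1.51 CPM), and 0 counts in both 6 h libraries. Counts were therefore almost confined to the 1 h libraries, and no fold is given against times with so few counts. Without a filter on low counts, HsfB3b was called higher at 1 h than at 0 h (edgeR adjusted p = 4.5e-06). It was called lower at 6 h than at 1 h (edgeR adjusted p = 7.2e-07). Both calls rest on the same 49 and 36 counts, and calls were common in that setting. There, 13357 of 27094 genes were called in either direction when 1 h was compared with 0 h. When 6 h was compared with 1 h, 14058 genes were called.

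The second comparison, 6 h of HS against 0 h, addressed the later state. Of the 6 tested members, 3 were called higher (HsfC1, HsfB4a and HsfB3a), 1 was called lower (HsfB2b) and 2 were not called. The share of all tested genes called was 58.8%, with 30.9% higher and 28.0% lower. The median log2 fold change was 0.19 over the tested members and 0.03 over all tested genes. CPM values of 6 h and 0 h did not overlap in any of the 6 members, 3 of which were higher and 3 lower at 6 h, as in 78.9% of all tested genes (41.2% higher, 37.7% lower).

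HsfC1 had the largest rise at 6 h. It is Solyc12g007070.2, at 1519971 to 1521647 of chromosome 12 (plus strand, 1677 bp). It had 224 and 215 counts at 0 h (9.35 and 8.63 CPM), 329 and 253 counts at 1 h (12.1 and 10.6 CPM), and 1378 and 1259 counts at 6 h (42.9 and 36.6 CPM). Both 6 h libraries held more than 3 times the CPM of any other library. Compared with 0 h, this was a log2 rise of 2.14 (SE 0.141, edgeR adjusted p = 1.3e-05), larger than that of 96.3% of all tested genes.

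HsfB4a (Solyc04g078770.4, chromosome 4, 63225074 to 63226391, plus strand, 1318 bp) had the widest spread between replicates among the tested members. It held 78 and 151 counts at 0 h, 56 and 56 counts at 1 h, and 228 and 519 counts at 6 h. At 6 h these were 7.09 and 15.1 CPM, so that replicate 2 held 2.13 times the value of replicate 1, and at 0 h the libraries differed 1.86-fold. The higher 0 h library nearly reached the lower 6 h library. The log2 fold change of 1.25 at 6 h (SE 0.388, edgeR adjusted p = 0.0225) rested on these libraries: it was 0.60 without replicate 2 of 6 h (edgeR adjusted p = 0.214) and 0.87 without replicate 1 of 0 h (edgeR adjusted p = 0.106). The range of the adjusted p-value over the 14 alternatives was 0.00256 to 0.214.

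HsfB3a was still higher at 6 h than at 0 h, by 0.57 on the log2 scale (SE 0.175, edgeR adjusted p = 0.022). HsfB3a was no longer called without replicate 1 of 0 h (0.37, edgeR adjusted p = 0.0922) and without replicate 1 of 6 h (0.45, edgeR adjusted p = 0.111), the latter being the highest adjusted p-value over the alternatives and 0.00351 the lowest.

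HsfB2b lay below its initial level at 6 h, at a log2 value of -1.14 (SE 0.183, edgeR adjusted p = 0.001). Of the 6 tested members it alone was called higher at 1 h and lower at 6 h. Outside the members, the class A gene HsfA8 had the same pattern of calls. HsfA8 was at 0.86 at 1 h (edgeR adjusted p = 0.000179) and -1.23 at 6 h (edgeR adjusted p = 5.0e-05). How many of all tested genes share this pattern was not counted. HsfB1 and HsfB2a had values of -0.37 (SE 0.166, edgeR adjusted p = 0.0855) and -0.18 (SE 0.110, edgeR adjusted p = 0.185) and were not called, and with library size as the only scaling the value of HsfB2a turned to 0.094. Without replicate 2 of 0 h, the lower control for both genes, HsfB1 was at -0.63 (edgeR adjusted p = 0.00728) and HsfB2a at -0.32 (edgeR adjusted p = 0.0489), and both were called lower. Over the 14 alternatives the highest adjusted p-values were 0.648 for HsfB1 and 0.567 for HsfB2a.

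**Figure D2:**
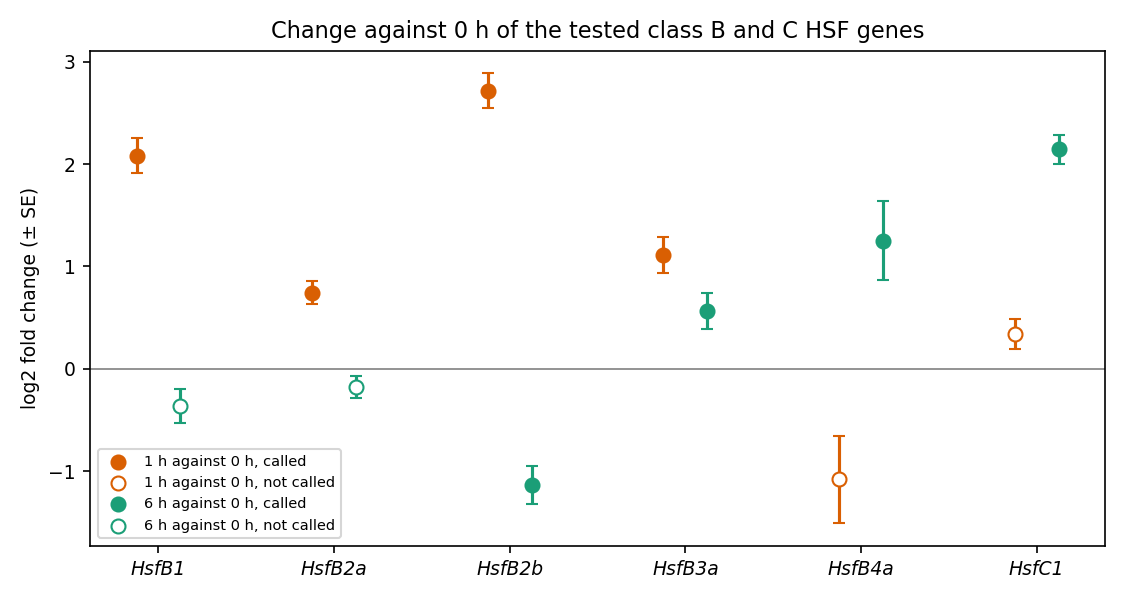
Log2 fold change against 0 h (points, with bars of 1 standard error) of the 6 tested class B and C HSF genes at 1 h and at 6 h of HS. Filled points were called at an adjusted p-value below 0.05. HsfB1, HsfB2a, HsfB2b and HsfB3a lie above 0 at 1 h, and HsfC1, HsfB4a and HsfB3a do so at 6 h, while HsfB2b is at -1.14 there.

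The third comparison set 6 h directly against 1 h. All 6 tested members were called, 2 as higher and 4 as lower, where 66.3% of all tested genes were called, 34.7% as higher and 31.7% as lower. Their median log2 fold change was -0.73, against 0.06 over all tested genes. The values of the times did not overlap in any tested member, 2 of which were higher and 4 lower at 6 h, as in 85.6% of all tested genes (45.1% higher, 40.5% lower).

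Among the members HsfB2b fell the most, with a value of -3.85 on the log2 scale (SE 0.181, edgeR adjusted p = 1.3e-06), or 14.5-fold. HsfB1 was at -2.45 (SE 0.173, edgeR adjusted p = 8.6e-06), or 5.47-fold lower, and HsfB2a at -0.92 (SE 0.110, edgeR adjusted p = 0.000129). All 3 of these genes had been called higher at 1 h. HsfB3a was lower by a smaller amount, -0.55 (SE 0.169, edgeR adjusted p = 0.0196). Its value was -0.12 with library size as the only scaling (edgeR adjusted p = 0.556) and was not called there, nor without either 1 h library or without replicate 2 of 6 h. The lowest adjusted p-value over the alternatives was 0.00333. HsfB4a rose by 2.33 (SE 0.416, edgeR adjusted p = 0.00123), and HsfC1 by 1.80 (SE 0.138, edgeR adjusted p = 1.3e-05). Without replicate 2 of 6 h the value of HsfB4a was 1.69 (edgeR adjusted p = 0.00767), and over the 14 alternatives its adjusted p-value ranged from 3.1e-07 to 0.0157.

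HsfB4b and HsfB5 were hardly detected in leaves. HsfB4b (Solyc11g064990.2, chromosome 11, 53544218 to 53546340, minus strand, 2123 bp) held 0 and 2 counts at 0 h, 1 count in each 1 h library, and 5 and 3 counts at 6 h. HsfB5 (Solyc02g078340.4, chromosome 2, 42665400 to 42667798, plus strand, 2399 bp) held 1 count in each 1 h library and 0 counts in the other 4. A count of 0 allows up to 3 counts, which is at most 0.125 CPM at 0 h and 0.0933 CPM at 6 h. Differences between times were not detectable at this depth for either gene. None of the 9 genes overlaps another gene of the table on either strand, and the nearest neighbour of any of them is 1517 bp away, beside HsfB1.

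The 2 genes of the B2 subclass were then compared within each library, which needs no scaling between libraries. HsfB2a held 8.55 and 8.85 times the counts of HsfB2b at 0 h, 2.29 and 2.13 times at 1 h, and 20.0 and 14.8 times at 6 h. On the log2 scale the ratio was 3.12 ± 0.0351 (SD, n = 2), 1.14 ± 0.0737 and 4.10 ± 0.305. The 3 times did not overlap, and each difference between times exceeded the spread between replicates. How many other pairs of genes separate in this way was not counted. Of single tested genes, 83.6% did not overlap between 0 h and 1 h, 78.9% between 0 h and 6 h, and 85.6% between 1 h and 6 h. Apart from scaling, the ratio restates the fold changes of the 2 genes given above. The exact permutation test gave p = 0.333 for every comparison of times, which is the smallest two-sided p that 2 libraries against 2 allow.

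**Figure D3:**
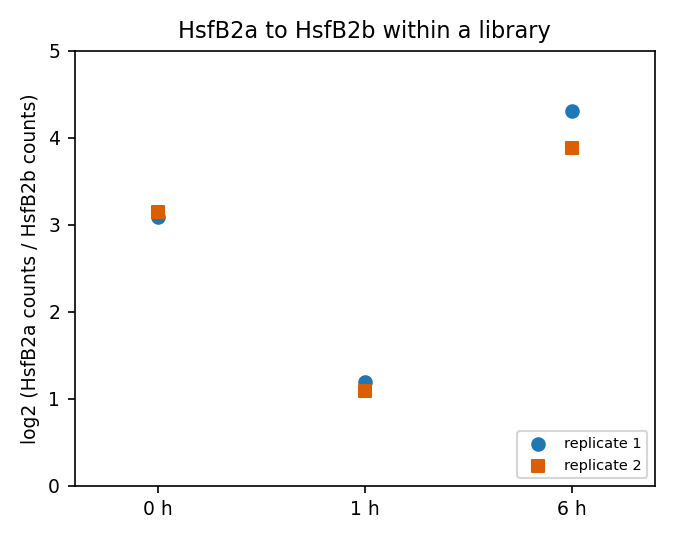
Log2 ratio of HsfB2a to HsfB2b counts (vertical axis) in each library at 0, 1 and 6 h of HS, with a point for each of the 2 replicates. The ratio is lowest at 1 h, with a mean of 1.14, and highest at 6 h, with a mean of 4.10.

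In the B3 subclass, HsfB3a held 10.7 and 12.5 times the counts of HsfB3b at 1 h. In the B4 subclass nearly all counts were those of HsfB4a at every time.

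Levels were compared between members as CPM per kb of gene span, which includes introns, since coding lengths were not used here. HsfB4b and HsfB5, and HsfB3b at 0 h and 6 h, held too few counts to enter the order. At 0 h the order was HsfB2a (42.4), HsfB1 (26.4), HsfB2b (6.09), HsfC1 (5.36), HsfB4a (3.53) and HsfB3a (2.49), and the ranges of the last pair overlapped. At 1 h HsfB1 led with 112, before HsfB2a (70.9), HsfB2b (40.0), HsfC1 (6.78), HsfB3a (5.39), HsfB4a (1.67) and HsfB3b (1.26), and no neighbours overlapped. At 6 h HsfB2a led again with 37.4, and HsfC1 (23.7) and HsfB1 (20.4) overlapped. They were followed by HsfB4a (8.42), HsfB3a (3.69) and HsfB2b (2.76), none of which overlapped its neighbour. These orders depend on the division by span, and the overlaps cover replicates only. In mean CPM, HsfB3a (8.83) stood above HsfB2b (8.44) and HsfB4a (4.66) at 0 h. At 1 h HsfB3a (19.1) stood above HsfC1 (11.4), and at 6 h HsfB1 (68.4) stood above HsfB2a (64.7) and HsfC1 (39.7). Per kb of span, HsfB1 lay above 83.8%, 95.2% and 81.5% of all tested genes at 0, 1 and 6 h, and HsfB2b above 54.8%, 87.4% and 30.6%. HsfC1 lay above 51.5%, 55.7% and 83.6%, so that its place among all genes rose at 6 h while that of HsfB2b was lowest then.

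The make-up of the family changed accordingly. Of the summed CPM per kb of all 9 genes, HsfB2a took 48.8% and 49.6% in the 0 h libraries, 30.1% and 29.6% at 1 h, and 39.3% and 38.3% at 6 h. HsfB1 went from 33.1% and 27.6% to 47.0% and 46.9%, and then to 20.4% and 21.9%. HsfB2b went from 7.12% and 6.98% to 16.4% and 17.3%, and then to 2.45% and 3.23%. HsfC1 went from 6.02% and 6.43% to 3.03% and 2.67%, and then to 27.7% and 21.7%. Per kb of span the largest share was thus held by HsfB2a at 0 h and 6 h and by HsfB1 at 1 h. On this scale HsfC1 was second at 6 h in replicate 1 and close behind HsfB1 in replicate 2. This change of leader rests on the division by span, since HsfB1 held more CPM than HsfB2a in every library. HsfB1 had 102.5 and 74.1 CPM at 0 h against 78.1 and 68.6 for HsfB2a. At 6 h these were 63.03 and 73.7 CPM against 62.72 and 66.6.

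The class A HSF genes, which include the activators of the family, were the other genes of the pathway. The list holds 15 identifiers taken from general knowledge of the tomato family, since the deposited table carries no gene names. All 15 were tested. At 1 h 11 were called higher and none lower, with a median log2 fold change of 1.75. Of all tested genes, 32.2% were called higher and 31.3% lower there. At 6 h against 0 h 9 were called higher and 2 lower (median 0.49), beside 30.9% and 28.0% of all tested genes. At 6 h against 1 h 2 were higher and 10 lower (median -1.52), beside 34.7% and 31.7%. Nothing particular to class A is read from these counts of calls. The gene of HsfA2 (Solyc08g062960.4), a strongly heat-induced coactivator in tomato, held 0.835 and 1.08 CPM at 0 h, 572 and 599 CPM at 1 h, and 25.8 and 43.2 CPM at 6 h. The log2 rise of HsfA2 at 1 h was 9.24 (SE 0.331, edgeR adjusted p = 3.5e-07). Among the tested class B and C members the highest value at that time was 2.72, that of HsfB2b. HsfA2 was the extreme of its class, whose values at 1 h ran from -0.29 to 9.24, with the median of 1.75 below the value of HsfB2b.

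Summed per kb of gene span, class B and C genes stood at 0.808 and 0.802 of the class A sum in the 0 h libraries. The 1 h libraries had ratios of 0.357 and 0.344, and the 6 h libraries 0.648 and 0.595. The ratio was lower under HS in all 4 libraries, and the 3 times did not overlap. HsfA2 took 42.3% and 43.0% of the class A sum at 1 h, against 0.360% and 0.537% at 0 h. With HsfA2 left out, a choice made after the data were seen, the 0 h libraries had ratios of 0.810 and 0.806, the 1 h libraries 0.619 and 0.604, and the 6 h libraries 0.712 and 0.681, and the order of the times held. Raw counts without the division by length, also tried after the data were seen, gave 0.503 and 0.473, 0.341 and 0.328, and 0.444 and 0.417. These ratios are given as a description, with no test.

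**Figure D4:**
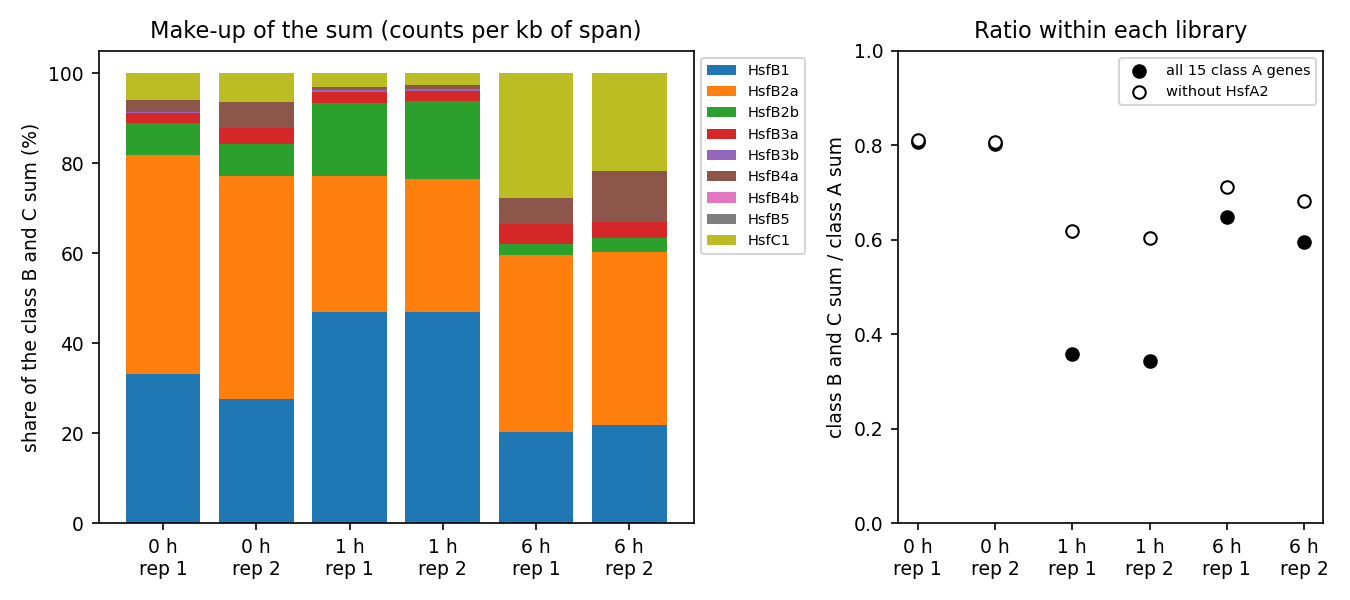
Left, share of each class B and C HSF gene (%, stacked bars) in their summed CPM per kb of gene span in each of the 6 libraries. Right, ratio of that sum to the sum of the 15 class A HSF genes in each library, with HsfA2 (filled points) and without it (open points), which is lowest in the 1 h libraries.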

How the data were processed

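RNA-seq counts of the 6 leaf libraries were analysed. The deposited values are raw counts per gene, not normalized or pooled; the authors used featureCounts 2.0.0 for them, per the file headers, with the M82 gene models 1.1.0, the reverse strand, with a mapping quality of at least 30 and with multi-mapped reads counted. The submitters' processing notes name Trimmomatic 0.38 and Bowtie2 2.3.5, whereas the methods of the study name STAR; the column headers name bowtie and the removal of PCR duplicates, which can lower the counts of abundant genes. The reads are described as single-end, but the counting used the option for read pairs, and it was not settled which of these the counts stand for. Reads of near-identical copies can be undercounted at this mapping quality. Gene length in the table is the span with introns.

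The filter of the study (50 or more counts in 2 or more libraries) was applied. All 6 libraries entered a single fit in edgeR 4.0.16 (TMM, quasi-likelihood F test, two-sided, R 4.3.3), and p-values were adjusted over the 19123 genes. SE is the log2 fold change divided by the square root of F. DESeq2 1.42.0, the tool of the study, was an alternative, as were other scalings, filters, thresholds and sets of libraries. Floors cover counting error only. The procedure was tested on simulated data in which only a small part of the genes changed, at 1 h alone. That simulation does not cover the scaling between libraries where most genes change. No heat shock elements or proteins were examined. The named genes are all 9 members, the class A and heat response lists, and for each member called at 1 h the 2 tested genes outside the family with the nearest pattern, of which identifiers are printed for HsfB1 only, since none has a gene name in the sources used here. Members and lists were chosen with earlier results of these data known.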

Additional observations from a re-analysis of the deposited data

Results flagged for a closer look

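The change from 1 h to 6 h was itself significant in each of the 6 tested members, so that their effects at the 2 times of HS differ by a direct test in edgeR. On the log2 scale it was -2.45 for HsfB1, -0.92 for HsfB2a, -3.85 for HsfB2b and -0.55 for HsfB3a, and 2.33 for HsfB4a and 1.80 for HsfC1. The change of HsfB3a depended on the processing. It was -0.12 and not called with library size as the only scaling (edgeR adjusted p = 0.556). Under TMM the direct test was significant for 66.3% of all tested genes. HsfB2b was called higher at 1 h and lower at 6 h, each against 0 h, as was the class A gene HsfA8. By CPM, both libraries of HsfB2b and HsfA8 lay above 0 h at 1 h and below it at 6 h. HsfB1 and HsfB2a had this order of CPM too, but were not called at 6 h against 0 h. How many of all tested genes share either pattern was not counted.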

How the results depend on the processing

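Of 252 values of the 18 log2 fold changes of tested members over 14 alternatives, 228 kept their direction and their side of the threshold, 23 crossed the threshold and 1 changed sign: HsfB2a at 6 h against 0 h was 0.094 with library size as the only scaling and was called under neither. Of the 18 log2 fold changes, 11 were unchanged in this sense under all 14 alternatives. The count of members called at 6 h against 0 h, 4 in the report, was 2 at a threshold of 0.01 and between 2 and 6 when a library was left out. With 1 library left out, the lone library was taken to vary like the others. Library size as the only scaling moved the median change of all tested genes, on the log2 scale, to -0.15, 0.30 and 0.48 in the 3 comparisons, in the order given, and the genes called higher and lower to 5061 and 7166, 8272 and 3379, and 10248 and 3552. Under TMM they were 6152 and 5992, 5900 and 5350, and 6633 and 6055. HsfB4a at 1 h was called lower in 8 of 14 alternatives, DESeq2 among them (-1.07, adjusted p = 0.0233), and DESeq2 also called HsfB1 lower at 6 h against 0 h (-0.42, adjusted p = 0.0403). With the replicate number as a block, 6, 4 and 6 members were called in the 3 comparisons. At 1 h this adds HsfC1 (0.34, edgeR adjusted p = 0.0472) and HsfB4a (-1.01, edgeR adjusted p = 0.0126). The deviations of same-numbered replicates correlated across genes at -0.0956, -0.0222 and 0.199 for 0 h with 1 h, 0 h with 6 h and 1 h with 6 h, and since only the last is positive the numbers were not treated as pairs. A factor shared by same-numbered 1 h and 6 h libraries was not tested. Counts of 0 and a span that includes introns limit HsfB3b, HsfB4b, HsfB5 and every level per kb.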

Other observations

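The tested genes outside the HSF family whose pattern was most like that of a member were sought for the 4 members called at 1 h. Likeness was the Euclidean distance over the 6 libraries between log2(CPM + 0.5) values centred on the mean of each gene, so that all points share the same libraries. For HsfB1 the nearest of 19102 genes was Solyc09g008010.3, at a distance of 0.160. It held 28.2 and 21.7 CPM at 0 h, 108 and 105 CPM at 1 h, and 16.5 and 18.8 CPM at 6 h. The next was Solyc11g005630.1, at 0.185, with 140 and 111 CPM, 473 and 502 CPM, and 90.04 and 100.4 CPM at these times. Neither identifier is named in the sources used here. The nearest genes of the other members lay at 0.0784 for HsfB2a, 0.175 for HsfB2b and 0.104 for HsfB3a. Within a distance of 0.5 there were 1161 genes for HsfB2a, 334 for HsfB3a, 81 for HsfB1 and 12 for HsfB2b. The distance was not scaled for the size of a gene's change, so these counts also depend on that size. Among the 4 members the change at 1 h was smallest for HsfB2a and largest for HsfB2b.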
